A study of Mus musculus with 1 sample.

Results

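The genes of oxidative phosphorylation were described in blood cells of 1 mouse after enrichment for T cells. All genes whose symbol began with Nduf, Uqcr, Cox4 to Cox8 or Atp5 were taken as nuclear encoded members, together with the mt-Nd, mt-Co, mt-Cytb and mt-Atp genes of the mitochondrial genome. The rule, which used names alone, found 103 of 32285 genes, 90 of them nuclear and 13 mitochondrial. No other gene in the feature table carried the mt- prefix, so these 13 were its whole set of mitochondrial transcripts.

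Oxidative phosphorylation takes place in the inner mitochondrial membrane, where complexes I, III and IV pass electrons to oxygen and pump protons, and complex V uses the resulting gradient to make ATP. Most subunits are read from nuclear genes, translated in the cytosol and imported, while a small core is transcribed from mitochondrial DNA as long precursor RNAs and translated inside the organelle. Resting T cells rely mainly on this pathway, and activated effector T cells are known to add a high rate of glycolysis.

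The study compared vehicle with a combination of anti-PD-1 and an ERBB2 inhibitor in a mouse model of small cell lung cancer (SCLC), and only the vehicle library was analysed here. The mouse came from the autochthonous model on a C57BL/6 background, in which a Cre-expressing adenovirus given into the trachea deletes Rb1 and Trp53 in the lung, and it received PBS every 3 days. Its sex and age are not in the labels. T cells were enriched from 150 µl of blood by negative selection after lysis of the red cells, and were profiled on the 10x platform for gene expression and T cell receptors (TCR).

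Expression was counted in unique molecular identifiers (UMIs), each of which marks 1 captured RNA molecule. A total of 1600 of 300213 barcodes held at least 1331 UMIs and were taken as cells, with 1334 to 18399 UMIs each and 7974264 UMIs together. Barcodes with a UMI of Gzma, Gzmb or Gzmk and none of Cd79a formed the granzyme class (145 barcodes), those with Cd4 alone the CD4 class (355), those with Cd8a or Cd8b1 alone the CD8 class (598), and those with Cd79a and no T class gene the Cd79a class (89). The remaining barcodes held none of these genes (350), both Cd4 and a Cd8 gene (46), or Cd79a with a T class gene (17). Each class was divided at a 10% share of UMIs from cytosolic ribosomal protein genes into ribosomal-high and ribosomal-low barcodes. Levels are UMIs pooled over a class per 10000 of its UMIs, with exact 95% Poisson intervals in brackets. They are not divided by transcript length, so a level compares captured molecules and not lengths of RNA. With 1 library from 1 mouse there was no replicate and no test, and all intervals cover counting error only. Doublets were not called.

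The classes were checked against their markers. T cell markers (Cd3d, Cd3e, Cd3g, Trac, Trbc1 and Trbc2) had a UMI in all 214 CD4 and all 404 CD8 ribosomal-high barcodes, in 123 of 128 granzyme barcodes and in 10 of 65 Cd79a barcodes. The Cd79a class held 309.6 UMIs of B cell markers per 10000, against 1.71 in CD4 barcodes. Cd79a itself counts toward these values and was absent from CD4 barcodes by the class rule. Cd79b, which the rule did not use, was also at 0 in CD4 barcodes. A level without Cd79a was not computed. In the granzyme class 78.1% of the barcodes had a Cd8 UMI, and 17 had neither Cd4 nor a Cd8 gene. A TCR clonotype was called in 9 of these 17. Natural killer (NK) cell markers (Ncr1, Klrb1c, Klrd1 and Tyrobp) were at 7.63 per 10000 in granzyme and 2.996 in CD8 ribosomal-high barcodes. They had a UMI in 89 of 128 and 315 of 404 barcodes. In ribosomal-low granzyme barcodes they were at 20.6 per 10000. Whether the class held NK cells was not tested. The 335 ribosomal-low barcodes of the CD4 and CD8 classes had a T cell marker in 90.4%, at a median of 3047 UMIs against 6339 in ribosomal-high barcodes. Neutrophil markers were at 3.32 per 10000 against 0.546 in ribosomal-high barcodes (6 and 5 barcodes), and platelet markers at 1.79 against 0.556. B cell markers went the other way, at 0.722 against 1.71, and monocyte markers were alike, at 0.897 against 0.907. All 5 platelet markers and all 4 neutrophil markers had a UMI in both groups.

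Over all cells, the 90 nuclear members gave 102516 UMIs, or 129 per 10000 (128 to 129), and the 13 mitochondrial members 145938 UMIs, or 183 per 10000 (182 to 184). Complex V, the ATP synthase, took 34.0% of the nuclear UMIs with its 17 members. Complex I (NADH dehydrogenase) took 32.2% with 39 members, complex IV (cytochrome c oxidase) 23.3% with 18, and complex III (ubiquinol to cytochrome c) 9.20% with 8. The 8 Ndufaf genes, which help to assemble complex I without staying in it, took 1.33%. The mitochondrial UMIs were divided differently, with 47.1% from the 3 complex IV genes, 24.5% from the 7 complex I genes, 16.1% from the ATP synthase genes mt-Atp6 and mt-Atp8 and 12.3% from mt-Cytb, the only mitochondrial gene of complex III. mt-Co1, the catalytic subunit of complex IV, was the most counted member with 29144 UMIs, and mt-Nd6, the only one read from the light strand, the least of the 13 with 616. Because mt-Atp8 overlaps mt-Atp6 and mt-Nd4l overlaps mt-Nd4, the division of reads within each of these pairs is uncertain.

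Among nuclear members the most counted were Atp5e, the epsilon subunit of ATP synthase (4180 UMIs), Cox4i1 (3741), Cox8a (3636), Uqcrh, a hinge protein of complex III (3375), and Atp5g2 (3193). Within complex I the leading genes were Ndufa3 (2120 UMIs), Ndufa4 (1996) and Ndufa13 (1895). Ndufa4 carries a complex I name, although its protein is now placed in complex IV. Behind Uqcrh in complex III stood Uqcrb (1007) and Uqcrq (1000), behind Cox8a in complex IV Cox7c (2743), and behind Atp5g2 in complex V Atp5h (2905). The assembly factors were far lower, with 316 UMIs for Ndufaf8, 299 for Ndufaf4 and 173 for Ndufaf3. Several members have processed pseudogenes with nearly the same sequence, so that single counts may miss or gain reads. Ndufb1-ps (1557 UMIs) carries a pseudogene name, although RefSeq lists it as the gene Ndufb1.

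Several subunits exist as alternative isoforms, and here the widely expressed form took nearly all counts. Cox4i2, known from lung and from low oxygen, had 1 UMI against 3741 for Cox4i1. The muscle form Cox7a1 had 4 UMIs against 1229 for Cox7a2, with Cox7a2l, which joins complexes III and IV, at 1950. Cox6b2, a testis form, had 9 against 1762 for Cox6b1. Of the 90 nuclear members 86 had a UMI. None was seen for Cox7b2, Cox8b, Cox8c or Ndufa4l2, which in 7974264 UMIs allows up to 0.00376 per 10000 each (3 UMIs), against 1495 UMIs for Cox7b, 3636 for Cox8a and 1996 for Ndufa4. Cox6a2, the heart and muscle form, had 10 UMIs against 1515 for Cox6a1, and all 10 lay in 1 barcode of 10278 UMIs from the group with both Cd4 and a Cd8 gene, which also held 32 UMIs of Siglech, 38 of Bst2 and none of Cd3e. These genes were looked up in that barcode after its value had been seen. The 3 genes for the identical c subunit of ATP synthase were all in use, with 1150 UMIs for Atp5g1, 3193 for Atp5g2 and 2319 for Atp5g3.

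Per 10000 of all UMIs, nuclear and mitochondrial members stood at similar levels in CD4, CD8 and Cd79a ribosomal-high barcodes and apart in the granzyme class. The nuclear set was at 151 per 10000 (148 to 153) in 214 CD4 barcodes, 154 (152 to 155) in 404 CD8 barcodes, 184 (181 to 187) in 128 granzyme barcodes and 147 (143 to 152) in 65 Cd79a barcodes. The mitochondrial set was at 164 (161 to 166), 154 (153 to 156), 123 (120.3 to 125) and 171 (166 to 176) in the same order. On this scale the granzyme class was highest for the nuclear and lowest for the mitochondrial genes. Per 10000 UMIs other than ribosomal protein and mt- UMIs, the nuclear set was at 239 in granzyme and 244 in CD8 barcodes. It was lower on that scale in CD4 (208) and Cd79a (198) barcodes. Mitochondrial UMIs per nuclear UMI, a value that does not depend on the other genes of the cell, were 1.09 (1.06 to 1.11) in CD4, 1.004 (0.991 to 1.02) in CD8, 0.668 (0.651 to 0.686) in granzyme and 1.16 (1.11 to 1.21) in Cd79a barcodes.

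**Figure D1:**
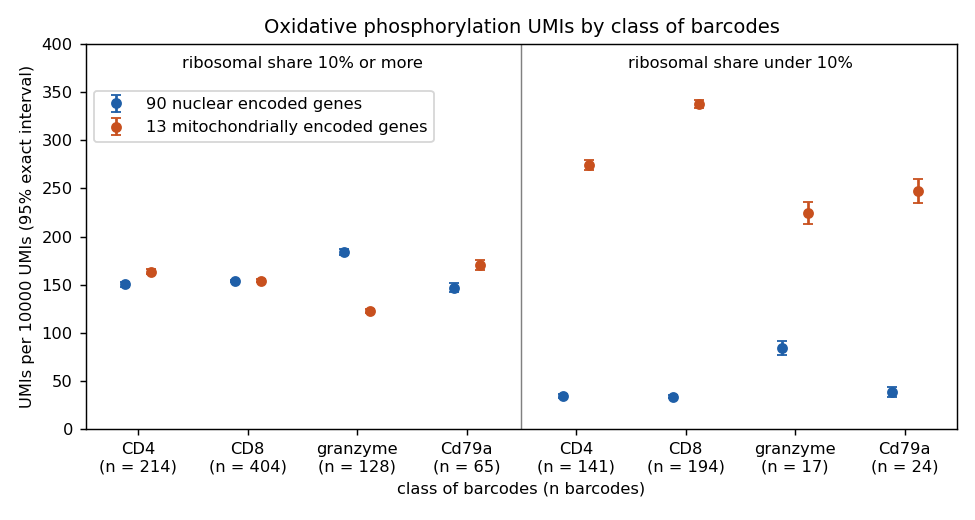
UMIs of the 90 nuclear (blue) and 13 mitochondrial (orange) genes per 10000 UMIs, pooled over the barcodes of each class, with exact 95% Poisson intervals. In ribosomal-high barcodes both sets lie between 123 and 184, while in ribosomal-low barcodes of the CD4, CD8 and Cd79a classes the nuclear set lies below 40 and the mitochondrial set at 247 or more.

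Between the CD8 and CD4 classes the oxidative phosphorylation genes differed little. The ratio of pooled levels, CD8 over CD4, was 1.02 (1.003 to 1.04) for the nuclear and 0.944 (0.927 to 0.961) for the mitochondrial set. Of 80 nuclear members with at least 50 UMIs in both classes together, 1 was higher and 2 were lower by a fold of 1.5, where over all 7475 genes with that minimum 5.61% were higher and 21.1% lower. Their median ratio was 1.004 against 0.839 over all genes. CD8 barcodes were deeper (median 8023 UMIs against 4127) and held more ribosomal protein UMIs (35.5% against 25.9%). In barcodes of 2000 to 4000 UMIs the nuclear ratio was 0.926 and the mitochondrial ratio 1.25, both on the other side of 1. Without ribosomal protein and mt- UMIs in the denominator they were 1.18 and 1.09, which turned the mitochondrial ratio.

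The member furthest from 1 was Ndufa10, an accessory subunit of complex I, at 0.563 per 10000 in CD4 and 1.005 in CD8 barcodes, a ratio of 1.78 (1.34 to 2.42). Atp5g2 was at 4.20 and 5.49, a ratio of 1.31 (1.17 to 1.46), while its sister gene Atp5g3 was at 3.82 and 3.36 (ratio 0.879). The third highest, Ndufaf7, had only 68 UMIs in both classes and a ratio of 1.29 (0.693 to 2.57). At the other end Ndufaf2 had a ratio of 0.608 (0.365 to 1.04), Ndufaf5 of 0.661 (0.363 to 1.25) and Ndufb11, an X-linked subunit of the membrane arm, of 0.738 (0.637 to 0.857). None of the 13 mitochondrial genes passed the fold in either direction.

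Mitochondrial transcripts were not lowered evenly between these classes. mt-Cytb was at 22.8 per 10000 in CD4 and 16.9 in CD8 barcodes, a ratio of 0.744 (0.708 to 0.782), whereas mt-Co1 was at 31.3 and 32.2 (1.03, 0.989 to 1.07) and mt-Nd2 at 6.74 and 7.95 (1.18, 1.08 to 1.29). As a share of the mitochondrial UMIs, which leaves the nuclear genes aside, mt-Cytb took 13.9% (13.4 to 14.5) in CD4 and 11.0% (10.7 to 11.2) in CD8 barcodes. In barcodes of 2000 to 4000 UMIs the shares were 14.4% (87 barcodes) and 10.7% (44 barcodes), and in ribosomal-low barcodes 14.1% and 12.3%. The mt-Cytb share was the lower in CD8 in each of these 3 comparisons, of which the second uses part of the barcodes of the first. Its level was not lower in CD8 among ribosomal-low barcodes, at 38.8 per 10000 (36.9 to 40.8) in CD4 and 41.5 (40.0 to 43.1) in CD8. Single barcodes overlapped widely, with a middle range of 9.23 to 18.3% in CD4 and 7.62 to 14.0% in CD8 barcodes. mt-Cytb was at 13.3% in Cd79a and 10.7% in granzyme barcodes, and at 12.1% and 12.6% in those of 2000 to 4000 UMIs, which is the reverse order.

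**Figure D2:**
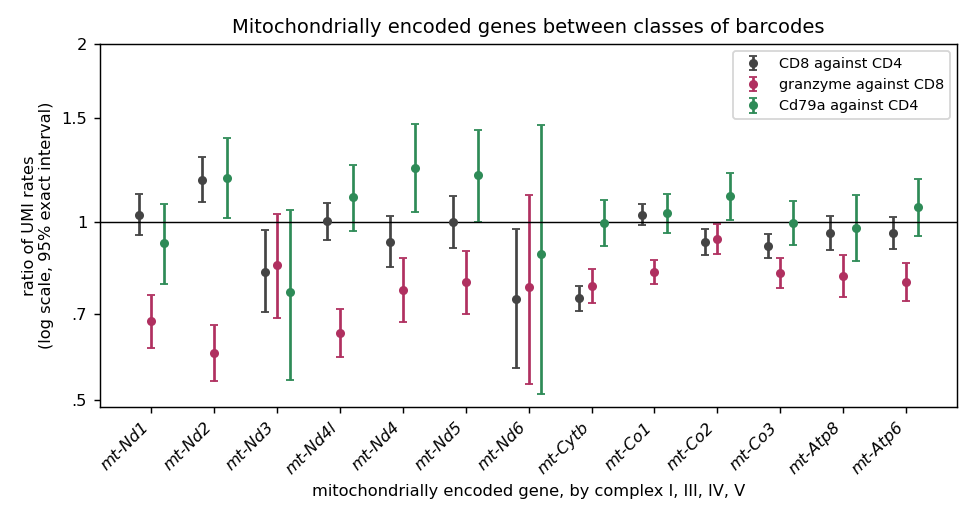
Ratio of pooled UMI levels (log axis) of each of the 13 mitochondrially encoded genes in 3 comparisons of ribosomal-high classes, with exact 95% intervals. The granzyme class lies below the CD8 class for all 13 genes, from 0.602 for mt-Nd2 to 0.937 for mt-Co2, and mt-Cytb lies apart from mt-Co1 in CD8 against CD4.

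Granzyme barcodes had more nuclear and less mitochondrial oxidative phosphorylation RNA than CD8 barcodes. The ratio, granzyme over CD8, was 1.19 (1.17 to 1.22) for the nuclear set and 0.795 (0.778 to 0.813) for the mitochondrial set. Of 80 nuclear members, 13 were higher by a fold of 1.5 and none lower, beside 24.0% of all 7334 genes higher and 8.74% lower, and the members' median of 1.21 was close to the median of 1.19 over all genes. The mitochondrial genes went the other way, with all 13 below 1, a median of 0.792 and mt-Nd2 and mt-Nd4l lower by the fold. Ribosomal protein UMIs took 21.8% in granzyme and 35.5% in CD8 barcodes. Without ribosomal protein and mt- UMIs in the denominator the nuclear ratio was 0.978 and the mitochondrial ratio 0.651, so the direction of the nuclear ratio changed with the denominator and that of the mitochondrial ratio did not. With that denominator 2 nuclear members were higher and 3 lower by the fold, and 9 of the 13 mitochondrial genes were lower. Over all genes 10.6% were then higher and 16.8% lower.

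Of single nuclear members in the granzyme class, Ndufb7, a complex I subunit on the side of the intermembrane space, had the highest ratio, at 2.42 per 10000 against 1.11 in CD8 (2.18, 1.82 to 2.60). The assembly factors Ndufaf7 (1.94, 1.17 to 3.15) and Ndufaf1 (1.82, 0.945 to 3.37) followed with 81 and 52 UMIs in both classes. Better counted genes past the fold were Cox6b1 (4.08 against 2.55 per 10000, ratio 1.60), Atp5h (6.62 against 4.24, ratio 1.56) and Cox5b (4.40 against 2.85, ratio 1.55). The lowest was Cox7a2l at 2.32 against 3.31 per 10000, a ratio of 0.701 (0.596 to 0.821), which had the opposite direction to the complex IV subunit Cox7a2 (2.45 against 1.84, ratio 1.33). Ndufaf4 (0.753, 0.480 to 1.14) and Ndufa9 (0.803, 0.545 to 1.15) came next from below. By complex the nuclear ratios were 1.24 for I, 1.07 for III, 1.22 for IV and 1.17 for V. All ratios in this paragraph use all UMIs as the denominator. Without ribosomal protein and mt- UMIs in it, each is lower by the factor that took the nuclear set from 1.19 to 0.978. Then 2 of 80 nuclear members were higher by the fold and 3 lower, beside 10.6% and 16.8% of all genes.

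Among the mitochondrial genes, those of complex I were lower in the granzyme class (ratio 0.691 together) than those of complex IV (0.852). mt-Nd2 was at 4.79 against 7.95 per 10000 (0.602, 0.539 to 0.672), mt-Nd4l at 6.76 against 10.4 (0.650) and mt-Nd1 at 5.68 against 8.35 (0.680). mt-Nd4 (0.769), mt-Nd5 (0.792), mt-Nd6 (0.778) and mt-Nd3 (0.847) stood nearer the middle. mt-Co2 was at 17.9 against 19.1 (0.937, 0.884 to 0.993), so its share of mitochondrial UMIs was 14.6% in granzyme and 12.4% in CD8 barcodes. mt-Co1 (0.824), mt-Co3 (0.820), mt-Atp8 (0.811), mt-Atp6 (0.792) and mt-Cytb (0.780) lay between. This order was not kept in barcodes of 2000 to 4000 UMIs (26 granzyme and 44 CD8). There mt-Nd2 took 4.36% and 4.46% of the mitochondrial UMIs in granzyme and CD8, and mt-Co3 11.9% and 16.0%. The shares of mt-Nd4l were 4.63% and 6.88%, and those of mt-Co2 16.8% and 12.3%. Ratios by complex were not computed at that depth. The 98 granzyme barcodes with a Cd8 gene and no Cd4 gave 1.19 for the nuclear and 0.789 for the mitochondrial set against CD8. The 11 with Cd4 alone gave 1.26 and 0.643 against CD4 barcodes. Monocyte markers were at 3.17 per 10000 in granzyme and 0.874 in CD8 barcodes, and the 17 granzyme barcodes with neither Cd4 nor a Cd8 gene had 186 nuclear and 136 mitochondrial UMIs per 10000. Without the barcodes with at least 2 UMIs of erythroid, platelet, neutrophil or monocyte markers the ratios were 1.16 and 0.779.

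In the Cd79a class both sets were close to their levels in CD4 barcodes. The ratio, Cd79a over CD4, was 0.978 (0.944 to 1.01) for the nuclear and 1.04 (1.01 to 1.08) for the mitochondrial set, and the latter fell below 1 in barcodes of 2000 to 4000 UMIs (0.821), as a mean over barcodes (0.937) and in barcodes of any ribosomal share (0.946). Of 74 nuclear members with at least 50 UMIs, 3 were higher and 8 lower by a fold of 1.5, beside 14.6% and 25.1% of 4088 genes. The 3 higher ones were core or peripheral complex I subunits, Ndufs8 at 1.16 against 0.532 per 10000 (2.18, 1.36 to 3.45), Ndufs6 at 1.01 against 0.573 (1.77, 1.08 to 2.83) and Ndufs3 at 1.09 against 0.686 (1.59, 0.995 to 2.47). The lowest were Ndufv3, a subunit of the NADH-binding module, at 0.689 against 1.61 (0.428, 0.251 to 0.692), Atp5h at 2.68 against 4.56 (0.589, 0.454 to 0.754) and Ndufv1, the NADH-binding flavoprotein itself, at 0.290 against 0.491 (0.590, 0.241 to 1.26). Among the ribosomal-high classes, Atp5h thus had its highest level in granzyme and its lowest in Cd79a barcodes.

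The largest differences lay between ribosomal-high and ribosomal-low barcodes of the CD4 and CD8 classes, and nuclear and mitochondrial members moved in opposite directions. The nuclear set was at 153 per 10000 (152 to 154) in 618 ribosomal-high and 34.1 (33.0 to 35.2) in 335 ribosomal-low barcodes, a ratio of 0.223 (0.215 to 0.230). The mitochondrial set was at 157 (155 to 158) and 315 (311 to 318), a ratio of 2.01 (1.98 to 2.04). Mitochondrial UMIs per nuclear UMI were 1.02 (1.01 to 1.03) and 9.24 (8.93 to 9.56). Because ribosomal protein UMIs took 3.10% instead of 33.2%, every other gene had more room in ribosomal-low barcodes. With ribosomal protein and mt- UMIs left out of the denominator the ratios were 0.155 and 1.40, and in barcodes of 2000 to 4000 UMIs they were 0.262 and 1.38.

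The same direction was seen within each class. In CD4 barcodes the nuclear level was 151 and 34.7 and the mitochondrial level 164 and 275, and in CD8 barcodes 154 and 33.7 and 154 and 337. The 24 ribosomal-low Cd79a barcodes were at 38.5 nuclear and 247 mitochondrial UMIs per 10000, and the 17 ribosomal-low granzyme barcodes at 84.5 and 224. The mitochondrial level of ribosomal-low barcodes was higher in the CD8 than in the CD4 class (ratio 1.23, 1.20 to 1.26), and the nuclear level was alike within counting error (0.972, 0.909 to 1.04). Leaving out the barcodes with at least 2 UMIs of erythroid, platelet, neutrophil and monocyte markers gave 0.222 for the nuclear and 1.98 for the mitochondrial ratio. The nuclear level of 34.1 was also below that of barcodes with 10 to 50 UMIs, which hold free RNA (88.7 nuclear and 54.5 mitochondrial UMIs per 10000). Barcodes of 200 to 1330 UMIs, below the limit for cells, held 80.1 nuclear and 553 mitochondrial UMIs per 10000. Their ribosomal protein share was 4.67%, and they had 6.91 mitochondrial UMIs per nuclear UMI.

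**Figure D3:**
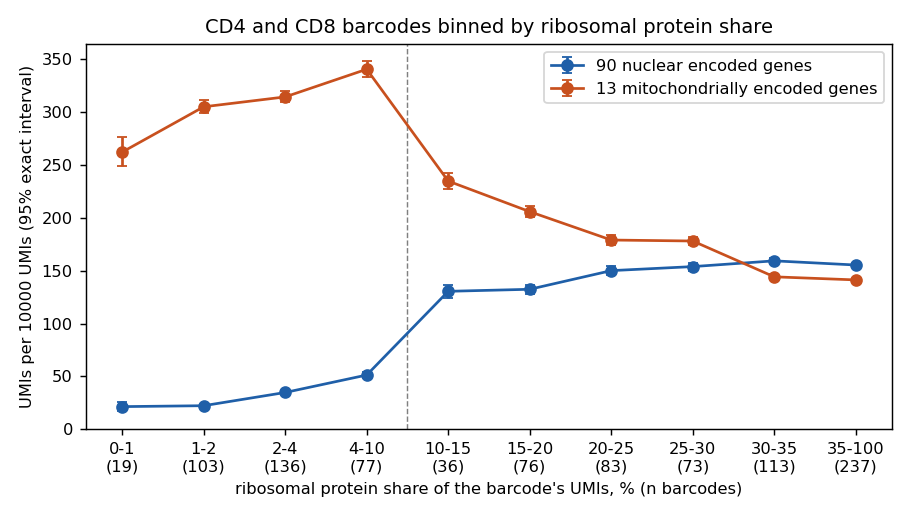
UMIs of the nuclear (blue) and mitochondrial (orange) genes per 10000 in CD4 and CD8 barcodes, by the ribosomal protein share of the barcode (barcodes per bin in brackets on the axis, exact 95% intervals). The nuclear level goes from 21.4 in the lowest to 155 in the highest bin with its largest step at the 10% limit (dashed line), and the mitochondrial level peaks at 340.4 between 4 and 10%.

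Along the ribosomal share the nuclear level was 21.4 per 10000 under 1% (19 barcodes), 22.3 from 1 to 2%, 34.8 from 2 to 4% and 51.3 from 4 to 10%, then 130.4 from 10 to 15% and between 132 and 159 in the bins above. The mitochondrial level was 262, 305, 314 and 340.4 in the bins under 10%, then 235 from 10 to 15%, and reached 141 from 35%. Few barcodes lay near the limit, 17 from 8 to 10% and 12 from 10 to 12%. The former had 69.8 nuclear and 382 mitochondrial UMIs per 10000 and the latter 116 and 389.7, so the nuclear levels differed across the limit by more than counting error and the mitochondrial intervals overlapped. A limit of 15% gave a nuclear ratio of 0.294 and a mitochondrial ratio of 1.99.

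Member by member, 74 of 81 nuclear genes with at least 50 UMIs were lower by a fold of 1.5 in ribosomal-low barcodes and 4 were higher, whereas over all 8378 genes 19.1% were lower and 52.3% higher. The median ratio was 0.192 for the nuclear members and 1.57 over all genes. All 13 mitochondrial genes were higher by the fold, from 1.87 for mt-Co1 (32.0 to 59.9 per 10000) and mt-Nd5 (5.05 to 9.45) to 2.22 for mt-Cytb (18.3 to 40.5) and 2.26 for mt-Nd6 (0.656 to 1.48). mt-Co2, mt-Co3, mt-Nd2, mt-Nd3, mt-Nd4l, mt-Nd1, mt-Nd4, mt-Atp6 and mt-Atp8 lay between 1.94 and 2.14. With ribosomal protein and mt- UMIs left out of the denominator 2 of the 13 were past the fold, where 35.2% of all genes were higher. With all UMIs 8 of the 13 were past a fold of 2, where 38.9% of all genes were higher. In barcodes of 2000 to 4000 UMIs the ratio of the mitochondrial set was 1.38, under the fold of 1.5. Single genes were not counted at that depth. The 13 genes kept nearly the same proportions, while the nuclear ones spread over more than an order of magnitude.

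The nuclear genes of each complex were lower, with pooled ratios of 0.163 for complex IV, 0.191 for III, 0.204 for V and 0.276 for I, and of 0.785 for the assembly factors of complex I, whose members went both ways. Of these, Ndufaf8 (0.136), Ndufaf3 (0.310) and Ndufaf4 (0.539) were lower by the fold. The lowest single gene was Atp5e at 6.54 against 0.509 per 10000 (0.0778, 0.0585 to 0.102), followed by the small complex III subunits Uqcrq at 1.60 against 0.130 (0.0808, 0.0439 to 0.136) and Uqcr10 at 1.49 against 0.130 (0.0867, 0.0471 to 0.147). Cox4i1 was at 5.76 against 0.981 (0.170), Cox8a at 5.36 against 0.814 (0.152) and Uqcrh at 5.40 against 0.555 (0.103). All 11 complex IV members and all 17 complex V members that met the minimum were lower by the fold, beside 19.1% of all genes. The exceptions that were higher were Ndufaf5 at 0.129 against 0.333 (2.58, 1.65 to 4.01), the core complex I subunit Ndufs1 at 0.339 against 0.712 (2.10, 1.57 to 2.79), the complex I subunit Ndufs4 at 1.04 against 2.09 (2.01, 1.70 to 2.37) and Ndufaf2 at 0.172 against 0.259 (1.51, 0.938 to 2.36). Ndufaf7 (1.31, 0.780 to 2.13), Ndufaf1 (1.13, 0.576 to 2.09) and Ndufa9 (0.681, 0.479 to 0.949) lay within the fold.

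**Figure D4:**
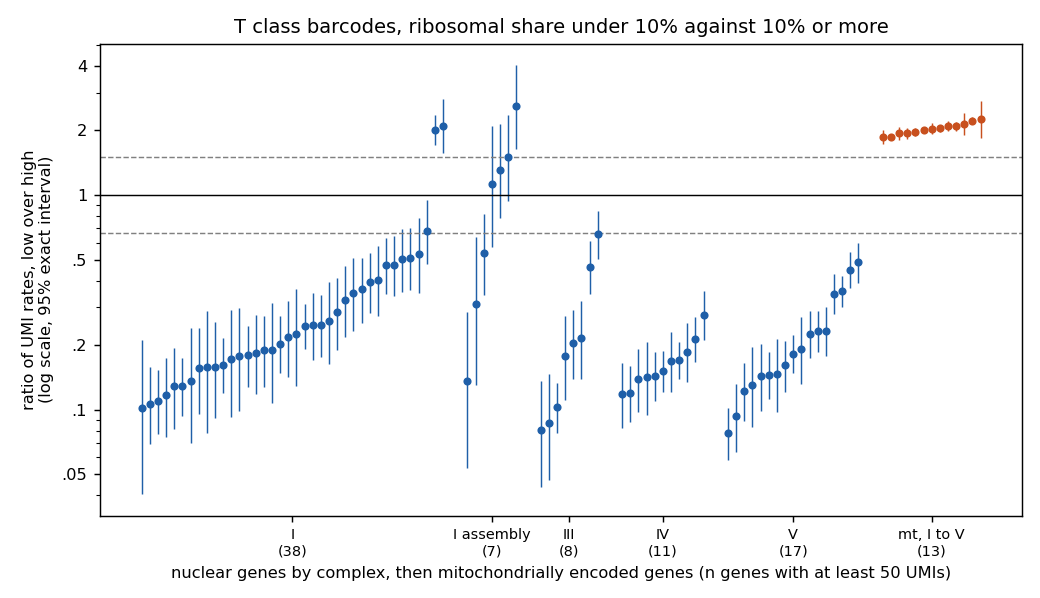
Ratio of pooled UMI levels, ribosomal-low over ribosomal-high T class barcodes (log axis, exact 95% intervals), for each nuclear member with at least 50 UMIs by complex (blue) and the 13 mitochondrial genes (orange). Solid and dashed lines mark 1 and a fold of 1.5. The mitochondrial genes lie between 1.87 and 2.26, and 74 of 81 nuclear members lie under the lower dashed line.

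The 4 higher members were all long genes, a feature that the choice of members did not use. Ndufs4 (ENSMUSG00000021764) spans 100.3 kb at chr13:114287795-114388094 in RefSeq on GRCm38.p6, Ndufaf2 106 kb, Ndufaf5 48.4 kb and Ndufs1 33.2 kb, whereas Atp5e (ENSMUSG00000016252) spans 3.03 kb at chr2:174461075-174464101 and Uqcrq 2.91 kb. Ndufa10, with 34.3 kb, had a ratio of 0.472. Spans from the first to the last base of the gene, introns included, were found for all 81 members, with a median of 7177 bases against 24629 over all genes. The median ratio was 0.145 for the 24 members under 5 kb, 0.188 for 34 from 5 to 10 kb, 0.277 for 13 from 10 to 20 kb, 0.564 for 8 from 20 to 50 kb and 1.76 for the last pair, Ndufs4 and Ndufaf2. Over all genes with a span the medians increased in the same order, from 0.431 (907 genes) over 0.721, 1.12 and 1.79 to 3.26 (2289 genes), so the members' median lay below that of all genes in each span bin. Ndufaf1, Ndufaf7, Ndufs1 and Ndufaf5 were above the median of all genes in their bins. Spearman's rho between span and ratio was 0.64 over the 81 members and 0.78 over 8277 genes, and that between UMIs and ratio was -0.51 and 0.00. These are descriptions across genes of 1 library, which share the same barcodes and are not independent.

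**Figure D5:**
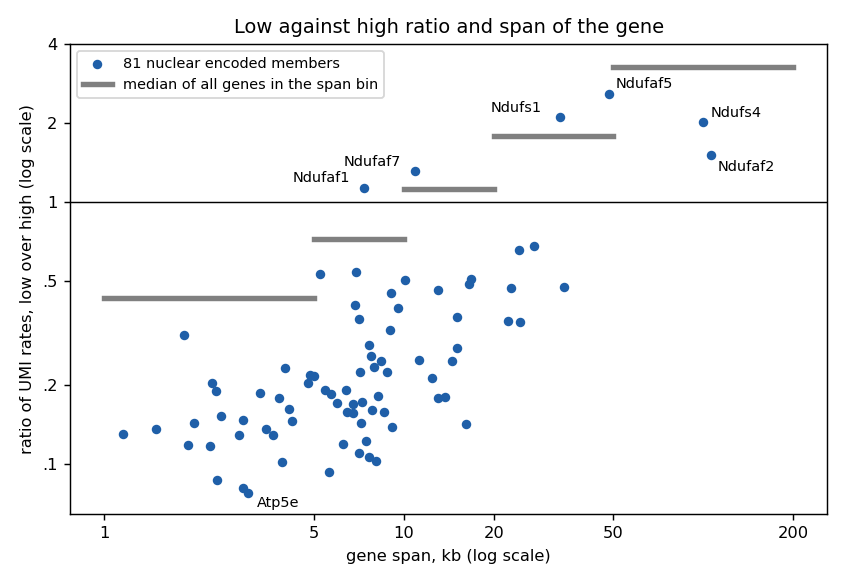
Ratio of pooled UMI levels, ribosomal-low over ribosomal-high T class barcodes, against the span of the gene in kb for 81 nuclear members (points, both axes log). Grey bars give the median ratio of all genes in each span bin, the outer bins being open to under 5 kb and from 50 kb. Members above 1 are Ndufs4, Ndufs1 and 4 of the assembly factors, and most members lie below the grey bars.

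Promoters were looked at because the nuclear members moved together. RefSeq windows on GRCm38.p6, from 250 bases before to 50 after a listed start of the gene, were found for 74 of the 90 nuclear members (79 windows) and searched on both strands for the cores of 3 factors known for this pathway, GCGCATGC for NRF1, CCGGAAGT for GABPA and AAGATGGC for YY1. The NRF1 core stood in a window of 11 of 74 members (14.9%), against 3.05% of all 27025 genes with a window and 7.15% of the 6768 genes among them with at least 50 UMIs in the T classes. The YY1 core stood in 11 members (14.9%, against 3.19% and 6.44%) and the GABPA core in 5 (6.76%, against 4.31% and 11.4%). At least 1 of the 3 was found in 26 members (35.1%, against 9.91% and 23.1%). Members with and without a core had similar ratios between ribosomal-low and ribosomal-high barcodes, with a median of 0.178 for 26 and 0.217 for 44. The windows of the members with the lowest and the highest ratio, of Ndufs4 and of Cox8a are shown 5′ to 3′ on the strand of the gene, with matches in capitals, and were chosen after the ratios had been seen.
Atp5e, lowest ratio, no match, chr2:174464052-174464351, minus strand: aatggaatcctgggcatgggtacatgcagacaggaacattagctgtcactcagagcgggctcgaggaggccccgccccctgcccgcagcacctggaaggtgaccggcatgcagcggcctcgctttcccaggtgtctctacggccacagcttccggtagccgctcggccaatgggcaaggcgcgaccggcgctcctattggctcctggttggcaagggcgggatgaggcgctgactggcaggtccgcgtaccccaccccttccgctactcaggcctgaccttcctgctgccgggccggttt
Cox8a, GABPA core in both matches, chr19:7217567-7217866, minus strand: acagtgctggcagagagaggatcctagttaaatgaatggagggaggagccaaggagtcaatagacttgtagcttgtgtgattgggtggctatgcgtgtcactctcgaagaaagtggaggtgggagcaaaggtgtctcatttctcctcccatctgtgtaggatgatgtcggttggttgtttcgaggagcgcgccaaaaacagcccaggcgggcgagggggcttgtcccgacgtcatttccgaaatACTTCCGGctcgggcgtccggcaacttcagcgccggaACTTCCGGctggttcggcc
Ndufaf5, highest ratio, NRF1 core on both strands in overlapping matches, chr2:140170396-140170695, plus strand: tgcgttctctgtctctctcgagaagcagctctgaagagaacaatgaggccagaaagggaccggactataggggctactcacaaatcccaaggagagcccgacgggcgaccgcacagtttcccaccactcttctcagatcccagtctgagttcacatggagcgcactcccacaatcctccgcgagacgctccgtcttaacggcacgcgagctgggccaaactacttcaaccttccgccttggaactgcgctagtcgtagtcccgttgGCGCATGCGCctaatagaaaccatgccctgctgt
Ndufs4, ratio over 1, YY1 core near the start, chr13:114388045-114388344, minus strand: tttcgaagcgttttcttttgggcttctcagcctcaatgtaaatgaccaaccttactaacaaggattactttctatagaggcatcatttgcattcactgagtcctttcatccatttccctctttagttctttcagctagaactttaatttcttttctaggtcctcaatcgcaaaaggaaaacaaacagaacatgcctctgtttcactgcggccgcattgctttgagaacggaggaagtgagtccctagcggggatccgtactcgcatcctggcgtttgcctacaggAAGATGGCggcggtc
Cox8a (ratio 0.152) and the higher Ndufs4 and Ndufaf5 thus each carried a core, and Atp5e none of these letters in its window.

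Single ribosomal-high barcodes varied more in mitochondrial than in nuclear RNA. Nuclear members took a median of 143 per 10000 (51.2 to 247) in CD4, 150 (44.2 to 257) in CD8, 182 (96.0 to 310.1) in granzyme and 149 (72.7 to 216) in Cd79a ribosomal-high barcodes. Mitochondrial members took 166 (8.23 to 533), 148 (4.21 to 889), 111 (4.25 to 588) and 149.9 (31.2 to 405). In ribosomal-low T class barcodes the medians were 30.4 (0 to 114) and 296 (4.38 to 1026). The full ranges of ribosomal-high and ribosomal-low barcodes overlapped in both sets and the middle ranges did not, at 126 to 169 and 21.1 to 42.7 for the nuclear set and at 113 to 207 and 213 to 407 for the mitochondrial set. In 13 of 618 ribosomal-high T class barcodes the mitochondrial level was under 30 per 10000, with a median nuclear level of 153 against 148 in all 618, and 11 of the 13 had a TCR clonotype.

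Across ribosomal-high barcodes the sets ran opposite to each other in 3 of the classes, with Spearman's rho of -0.45 in 214 CD4, -0.33 in 404 CD8 and -0.37 in 65 Cd79a barcodes, against 0.04 in 128 granzyme and -0.03 in 335 ribosomal-low T class barcodes. Both levels are shares of 1 total, and the mitochondrial level also ran against the UMI total (rho -0.38 in CD4 and -0.31 in CD8), so these values describe the barcodes and no more. To compare how many members a barcode showed at equal depth, each barcode was thinned to 1331 UMIs, which left none out. A median of 15 nuclear members was then detected in CD4, 16 in CD8, 19 in granzyme and 17 in Cd79a ribosomal-high barcodes, and 4 in ribosomal-low T class barcodes (36, 53, 48, 37 and 8 without thinning). For the mitochondrial genes the medians were 9, 9, 7, 9 and 10 of 13.

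TCR clonotypes, which come from a separate library of the same cells, divided the barcodes further. A clonotype was called in 93.4% of ribosomal-high and 29.3% of ribosomal-low T class barcodes. Among the ribosomal-high barcodes, the 41 without a clonotype had 135 nuclear and 224 mitochondrial UMIs per 10000 against 154 and 153 in the 577 with one, ratios of 0.880 (0.845 to 0.917) and 1.46 (1.42 to 1.51). Among the ribosomal-low barcodes the 237 without a clonotype had 30.6 and 322 against 41.1 and 299.5 in the 98 with one, ratios of 0.745 (0.697 to 0.797) and 1.08 (1.05 to 1.10). Median UMI totals were 3341 against 6569 and 2912 against 3539, and the part of depth was not tested. Within clonotyped barcodes alone, an alternative chosen after seeing the data, the ribosomal-low over ribosomal-high ratio was 0.267 for the nuclear and 1.95 for the mitochondrial set.

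Other genes around the pathway were followed in the same comparison of ribosomal-low with ribosomal-high T class barcodes. Of the 4 complex II genes, which also belong to the TCA cycle, Sdhb (0.415) and Sdhd (0.390) were lower by the fold, and Sdha (1.26) and Sdhc (0.749) were not. Cytochrome c (Cycs, 0.253) and cytochrome c1 (Cyc1, 0.449), the latter a complex III subunit that the symbol rule does not catch, were both lower. Mitochondrial ribosomal proteins, which translate the 13 mitochondrial RNAs, were lower in 58 and higher in 5 of 78 genes (median 0.444), and 6 of 8 import and carrier genes were lower (median 0.495), led by the ATP/ADP carrier Slc25a5 (0.191). Genes for assembly of complexes III and IV were lower in 8 and higher in 3 of 13 (median 0.479). The 13 TCA cycle genes had a median of 1.03 with 3 in each direction, and 14 glycolysis genes a median of 0.498 with 9 lower, among them Gapdh (0.173). Over all genes 52.3% were higher and 19.1% lower, with a median of 1.57. Beside these shares, 5 of 7 genes were higher by the fold in the list of mitochondrial transcription and replication (median 1.79) and 6 of 8 among the upstream regulators (median 1.85), with Nrf1 at 0.453 against 1.90 per 10000 (4.18). Over all genes this ratio increased with gene span, and the lists were not compared within span bins. Of the cytosolic ribosomal proteins 84 of 85 were lower, which the rule for these barcodes fixed. Malat1, an RNA kept in the nucleus, was at 74.0 per 10000 in ribosomal-high and 242 in ribosomal-low barcodes (3.27), and the abundant mRNAs Actb (0.293), Tmsb4x (0.185) and B2m (0.276) were all lower.

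In the granzyme class the same lists gave another picture. Glycolysis genes were higher by the fold in 6 and lower in 1 of 14 (median 1.47), beside 24.0% of all genes higher. Among the 6 were Pkm at 1.69, Tpi1 at 1.71, Aldoa at 1.54 and the glucose transporter Slc2a1 at 2.15. Gapdh was just under the fold at 1.49, and the lactate transporter Slc16a1 was lower at 0.497. These ratios use all UMIs as the denominator. Leaving ribosomal protein and mt- UMIs out of it lowers every ratio by the same factor, which took the nuclear set from 1.19 to 0.978. The share of all genes higher by the fold was then 10.6%. The glycolysis genes were not recounted that way, so the count of 6 holds for the first denominator only. TCA cycle genes had a median of 1.21 with 1 of 13 past the fold, complex II genes of 1.14 with Sdhb at 1.95, and mitochondrial ribosomal proteins of 1.12 with 8 higher and 6 lower of 76. The last 3 medians were near the 1.19 of all genes, as was that of the nuclear members. Of the regulators, Myc was lower in granzyme than in CD8 barcodes (0.345, 0.207 to 0.545) and higher in CD8 than in CD4 (2.89) and in Cd79a than in CD4 barcodes (5.81).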

How the data were processed

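Gene expression and TCR libraries of 1 vehicle-treated mouse were used. The authors deposited unnormalised UMI counts of each gene in all barcodes, made with Cell Ranger 4 per the file headers, on GRCm38 per the submitters' processing notes, and a table of assembled TCR contigs with counts of reads and UMIs per contig. The annotation and strand setting are not given in the sources used here. Barcodes with at least 1331 UMIs, the 99th percentile among the top 3000 divided by 10, were kept, holding 62.0% of 12855001 UMIs. Clonotypes were taken from productive, high-confidence contigs marked as cells. UMIs were pooled per class, with exact Poisson intervals, exact conditional intervals for ratios and exact binomial intervals for shares. Genes with at least 50 UMIs in both groups together counted as higher or lower past a fold of 1.5. Named are the 13 mitochondrial genes, the 3 most counted nuclear members of each complex and of the assembly factors, the 3 highest and 3 lowest ratios in each comparison, isoform families and members without UMIs. Members and lists were chosen with earlier results of these data known. Alternatives changed the denominator, depth, ribosomal limit, fold, minimum, class definition, weighting, free RNA and marker-bearing barcodes. Calculations, tested on simulated data, used Python 3.11.15, NumPy 2.4.6, SciPy 1.17.1, pandas 2.3.3 and matplotlib 3.10.9.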

Additional observations from a re-analysis of the deposited data

How the results depend on the processing

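Of 78 alternatives, 35 left the value within its counting interval or the count within 1.5 times, 36 moved it and 7 reversed it. The ratios are given as nuclear and then mitochondrial. With ribosomal protein and mt- UMIs left out of the denominator, CD8 over CD4 was 1.18 and 1.09 (reversed), granzyme over CD8 0.978 (reversed) and 0.651, and ribosomal-low over ribosomal-high 0.155 and 1.40. In barcodes of 2000 to 4000 UMIs, CD8 over CD4 was 0.926 and 1.25 (both reversed), granzyme over CD8 1.53 and 0.486, Cd79a over CD4 1.06 (above 1, where the full class was below) and 0.821 (reversed), and ribosomal-low over ribosomal-high 0.262 and 1.38. In barcodes of any ribosomal share, CD8 over CD4 was 1.13 for the nuclear set, granzyme over CD8 1.33 and 0.700, and Cd79a over CD4 1.08 and 0.946 (the latter reversed). As a mean over barcodes, the mitochondrial ratio was 0.979 for CD8 over CD4 and 0.937 (reversed) for Cd79a over CD4, granzyme over CD8 was 1.23 and 0.682, and ribosomal-low over ribosomal-high 0.235 and 1.83. With overlapping classes, each holding all barcodes with a UMI of its genes, granzyme over CD8 was 1.16 and 0.822, and the mitochondrial ratio of ribosomal-low over ribosomal-high 2.06. Without barcodes bearing other blood cell markers, CD8 over CD4 was 0.974 for the mitochondrial set, granzyme over CD8 1.16 for the nuclear set, Cd79a over CD4 0.943 and 1.005, and ribosomal-low over ribosomal-high 1.98 for the mitochondrial set. The ribosomal limit of 15% gave 0.294 and the subtraction of 5% free RNA 0.199 for the nuclear ribosomal-low ratio. In clonotyped barcodes alone, chosen after seeing the data, that comparison gave 0.267 and 1.95. At a fold of 2 the nuclear members past it numbered 0 of 80 instead of 3 in CD8 over CD4. Over all genes 2.27% were then higher and 5.51% lower. In granzyme over CD8 there was 1 higher and none lower instead of 13, beside 7.55% of all genes higher. In Cd79a over CD4 they numbered 2 of 74 instead of 11. Of these 1 was higher and 1 lower, beside 8% and 15.2% of all genes. At a minimum of 200 UMIs they numbered 1 of 74 in CD8 over CD4, beside 3.22% of all genes higher and 16.3% lower. In Cd79a over CD4 they numbered 3, but only 36 members met that minimum, beside 9.56% of all genes higher and 26.3% lower. With the other denominator they numbered 5 of 80 in granzyme over CD8, beside 10.6% higher and 16.8% lower. The 78 members past the fold in ribosomal-low barcodes, 4 higher and 74 lower of 81, became 72 to 76. At a fold of 2 they were 3 higher and 69 lower of 81, beside 38.9% and 13% of all genes. At a minimum of 200 UMIs they were 2 and 73 of 76, beside 53.5% and 23.6%. With the other denominator they were 1 and 75 of 81, beside 35.2% and 29.9%. The causes were not tested. No paired analysis was possible because there was 1 library.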
